A study of Mus musculus with 2 samples.

Results

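The cells described here were GFP+ retinal cells that already held a transcript of *Opn1sw*, the gene of the short wavelength cone opsin (S-opsin). They were chosen by a single measured value, at least 1 *Opn1sw* unique molecular identifier (UMI, the tag by which PCR copies of the same captured transcript are counted as 1). The rule found 156 of the 3728 GFP+ cells, in a series of 8173 cells. The cells were read beside the 3572 GFP+ cells of the same library that held no *Opn1sw* UMI. Because *Opn1sw* chose the cells, its level in them is a description and supports nothing, and the cells at the boundary of the rule are the 128 with 1 UMI on its inner side and those with 0 UMIs on its outer side.

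All cells came from mouse retinas at E14.5 of the transgenic strain Tg(Lhx4::EGFP)KN199Gsat/Mmucd, in which an artificial chromosome carrying the *Lhx4* gene region drives green fluorescent protein. Per the study, the transgene was kept heterozygous, and GFP-positive retinas of 2 litters were pooled and sorted into a GFP+ and a GFP− sample, each made into 1 droplet library with 3′ tagging. The transgene thus marks cells by *Lhx4* promoter activity and not by cone identity, and both libraries carry it. With 1 library per gate and pooled animals there were no replicates, so no test was made, and every interval given is a 95% exact interval that covers counting error only.

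Cones of the mouse retina detect light with S-opsin, M-opsin or both, and their opsin is the protein that starts the phototransduction cascade of transducin, phosphodiesterase and a cyclic nucleotide gated channel. Cones are born in the embryo, well before they have outer segments, and they switch on pan-cone and photoreceptor genes ahead of the opsins. S-opsin is known to come before M-opsin, and thyroid hormone receptor beta (*Thrb*) with its partner *Rxrg* is known to hold S-opsin down and to promote M-opsin in dorsal cones.

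The GFP+ library held 16010591 UMIs and the kept GFP− library, which was left with 4444 cells when 1 cell with a mitochondrial fraction above 0.25 was removed, held 46774961 UMIs. The 156 cells with an *Opn1sw* UMI had a median of 3890.5 UMIs and 1911.5 genes, and the 3572 cells without one had 3911 UMIs and 1927 genes. Mitochondrial genes made up a median of 2.64% of UMIs in the former and 2.48% in the latter. Summed over cells, ribosomal protein genes took 16.4% and 17.5% of UMIs, and the nuclear RNA *Malat1* 5.89% and 5.4%. The 2 sets of cells were therefore of nearly the same depth. Scrublet, a caller of droplets with 2 cells, marked 3 GFP+ cells (0.0805%), none of them with an *Opn1sw* UMI, and 55 GFP− cells (1.24%). The libraries shared 20 cell barcodes, none of which belonged to a cell with an *Opn1sw* UMI.

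The *Opn1sw* gene lies on the minus strand at chr6:29376671-29388468 (GRCm38, GENCODE annotation). The 250 bases before its RefSeq start site, chr6:29380514-29380763 on the minus strand (GRCm38.p6), are shown because they precede the transcript by which the cells were chosen. They overlap no annotated exon, although a longer annotated transcript puts them inside the gene. Capitals mark TAATC, the core of the site bound by CRX and OTX2, and AGGTCA, the core site of nuclear receptors such as THRB, RXRG and RORB, read on both strands.
Opn1sw: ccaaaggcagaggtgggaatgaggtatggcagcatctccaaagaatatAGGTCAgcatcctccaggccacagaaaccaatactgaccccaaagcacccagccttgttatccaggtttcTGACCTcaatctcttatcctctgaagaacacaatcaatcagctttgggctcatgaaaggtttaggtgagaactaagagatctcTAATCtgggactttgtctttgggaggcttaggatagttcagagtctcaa
The TAATC match began 49 bases before the start, on the strand of the gene. One AGGTCA match began 202 bases before it on the same strand, and the other 132 bases before it on the opposite strand, where it reads TGACCT. No match overlapped another. Of 32851 RefSeq windows of the same length, 19.8% held TAATC and 14.02% held AGGTCA, so these matches describe the window and are common.

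*Opn1sw* transcripts were sparse and were found in the GFP+ library alone. The 156 cells made up 4.18% of the GFP+ cells (95% Clopper-Pearson interval 3.56 to 4.88%) and held 232 UMIs, which over the whole GFP+ library is 14.49 per 1000000 UMIs (CPM, 95% Poisson interval 12.7 to 16.5). No GFP− cell held an *Opn1sw* UMI, which allows a share of up to 0.0675% of cells with a UMI there and does not limit the share that expressed the gene, and with 3 counts as the floor the level in GFP+ cells was at least 226-fold higher. The GFP− library was the deeper, with a median of 9937.5 UMIs per cell against 3906.5 UMIs. Within the GFP+ library, an *Opn1sw* UMI was found in 4.38% of the 3468 cells with *Crx* (3.73 to 5.12%) and in 1.54% of the 260 cells without it (0.421 to 3.89%), and the part of free RNA in the cells with a single UMI was not tested.

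Most of the cells held a single *Opn1sw* UMI, 128 of 156, or 82.1%. Above them, 12 cells held 2 UMIs, 9 held 3, and 2 cells each held 4, 5 and 6. A single cell held 23 *Opn1sw* UMIs among 3878 UMIs and 1913 genes, near the median depth. The 28 cells with 2 or more UMIs, 0.751% of the GFP+ cells (0.50 to 1.08%), carried 104 of the 232 UMIs (44.8%). The variance of *Opn1sw* UMIs over all GFP+ cells was 3.99 times their mean, and 1.91 times without the cell at 23 UMIs.

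**Figure D1:**
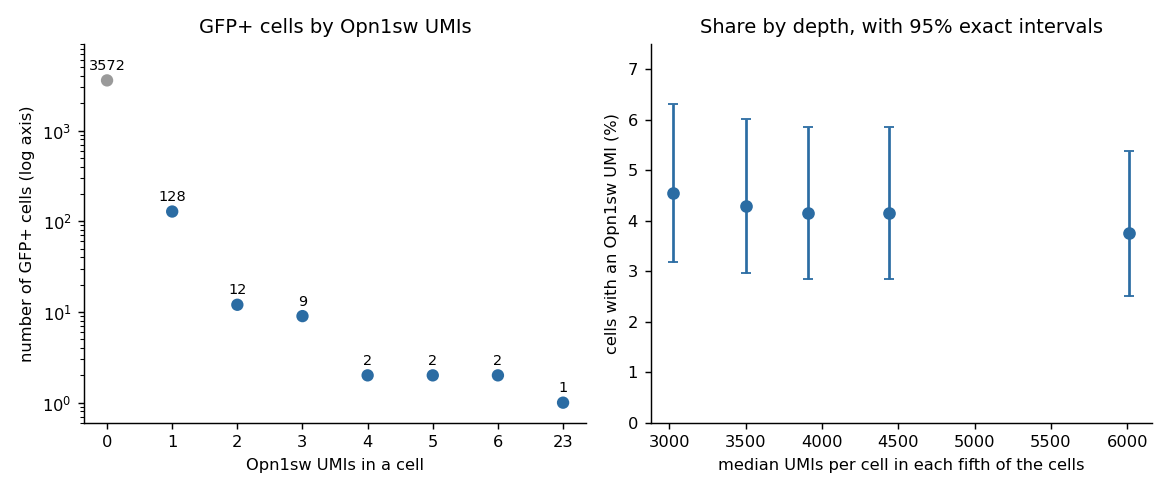
Left, the number of GFP+ cells (log axis) with each number of Opn1sw UMIs, with 3572 cells at 0 (grey), 128 at 1 and a single cell at 23. Right, the share of cells with an Opn1sw UMI in 5 groups of GFP+ cells ordered by total UMIs, plotted at each group's median UMIs per cell with 95% Clopper-Pearson intervals, which runs between 3.75% and 4.56% with overlapping intervals.

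The share did not grow with depth. When the GFP+ cells were ordered by total UMIs and cut into 5 equal groups, the share with an *Opn1sw* UMI was 4.56% in the shallowest group (median 3027.5 UMIs), then 4.30%, 4.16% and 4.16%, and 3.75% in the deepest (median 6014.5 UMIs). The 5 intervals overlapped. Thinned to 3000 UMIs per cell, 110 of the 3384 cells deep enough kept an *Opn1sw* UMI, or 3.25% (2.68 to 3.90%), and 16 of the 156 cells were too shallow to enter.

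The label of a cone held against the marker genes. Of the 156 cells, 149 held UMIs of both *Gngt2*, the gamma subunit of cone transducin, and *Crx*, the photoreceptor homeobox factor, a share of 95.5% (91.0 to 98.2%). The share was 89.6% in the GFP+ cells without *Opn1sw* and 1.13% in the GFP− cells. Among the 28 cells with 2 or more *Opn1sw* UMIs it was 96.4%. *Otx2*, which acts ahead of *Crx* in photoreceptor fate, was found in 98.7% of the 156 cells, *Thrb* in 86.5% and *Rxrg* in 59.0%. *Nrl*, the rod fate factor, was found in 23 cells, or 14.7%, against 11.0% of the other GFP+ cells. *Opn1mw*, the M-opsin gene, had 0 UMIs in every GFP+ cell. No cell thus held UMIs of both opsins, which does not limit the share that expressed both. The chosen cells thus carried cone markers, at shares no lower than those of the GFP+ cells around them.

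To find where the 156 cells differed from their neighbours in the library, UMIs were summed over each set, 652238 UMIs with and 15358353 UMIs without *Opn1sw*, and the CPM ratio was taken for the 3695 genes with at least 30 UMIs expected in the chosen cells. The profiles were close. The median log2 ratio over all tested genes was 0.002 with an SD of 0.22, and 25 genes were at least 1.5-fold higher and 37 at least 1.5-fold lower, 0.677% and 1.0% of those tested. With edgeR's TMM scaling, which shifted every log2 ratio by −0.049, the split was 15 higher and 50 lower. These counts stand as the background for the gene groups that follow and say nothing on their own, since small sums scatter.

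*Ccdc136*, which encodes a coiled-coil protein and is the gene next to *Opn1sw*, had the highest ratio of the 3695 tested genes. It stood at 650 CPM in the cells with an *Opn1sw* UMI (590 to 715) and 230 CPM in those without (223 to 238), a ratio of 2.82 (2.55 to 3.12). A *Ccdc136* UMI was found in 80.1% of cells with *Opn1sw* and 51.6% of cells without it, and in 75.0% and 43.7% of cells thinned to 3000 UMIs. The cells with *Opn1sw* held from 0 to 11 *Ccdc136* UMIs with a median of 2, and the others from 0 to 12 with a median of 1, so the sets overlapped throughout. Its level was 566 CPM (503 to 634) in cells with 1 *Opn1sw* UMI and higher again, at 992 CPM (828 to 1180), in cells with 2 or more. At least 3 *Ccdc136* UMIs were seen in 11.5% of cells with no *Opn1sw* UMI, 41.4% of cells with 1 and 78.6% (59.0 to 91.7%) of cells with 2 or more, and these 3 intervals did not overlap. GFP− cells had 27.6 CPM.

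**Figure D2:**
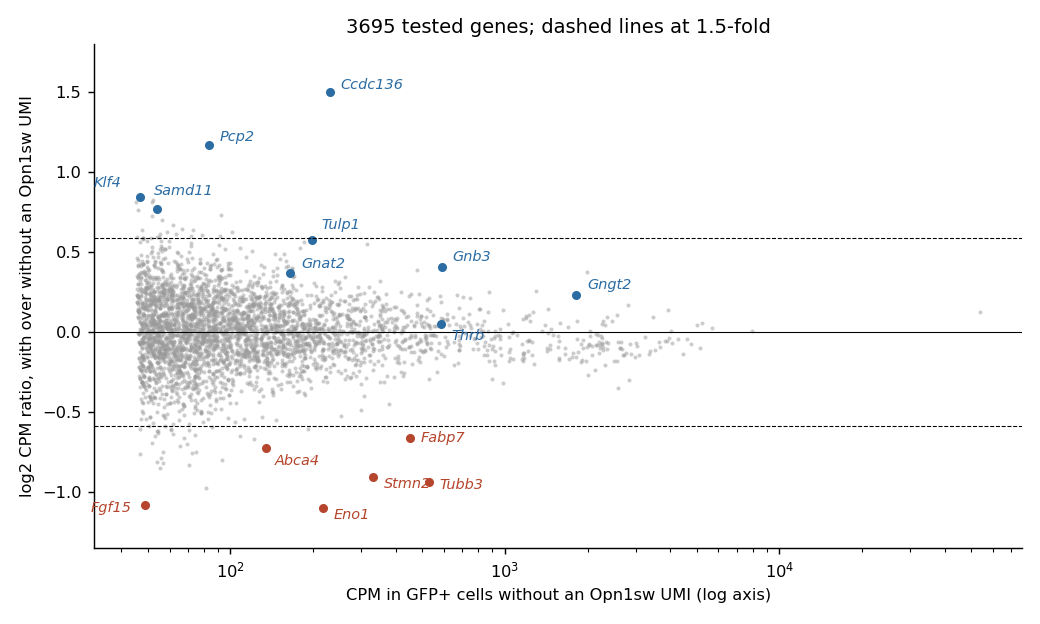
Each grey point is 1 of 3695 tested genes, placed by its CPM in GFP+ cells without an Opn1sw UMI (log axis) and its log2 CPM ratio, with over without an Opn1sw UMI; named genes are blue above 0 and red below, and dashed lines mark 1.5-fold. Ccdc136 and Pcp2 lie above all other genes, and Eno1, Tubb3 and Stmn2 lie below the cloud at their level.

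Read the other way, the share of GFP+ cells with an *Opn1sw* UMI followed the number of *Ccdc136* UMIs in the cell. It was 1.76% in the 1760 cells with none (1.20 to 2.49%), 2.96% in cells with 1 and 4.26% in cells with 2. It was then 12.0% in cells with 3 (8.10 to 16.8%) and 18.7% in the 251 cells with 4 or more (14.1 to 24.1%). The *Opn1sw* level in the same order ran from 4.65 to 85.4 CPM. Cells with 4 or more *Ccdc136* UMIs were somewhat deeper, with a median of 4319 UMIs against 3776.5 UMIs in cells with none, and the part of depth in this order was not tested. Still, 31 of the 156 cells held no *Ccdc136* UMI, and of the 251 cells with 4 or more only 47 held an *Opn1sw* UMI.

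**Figure D3:**
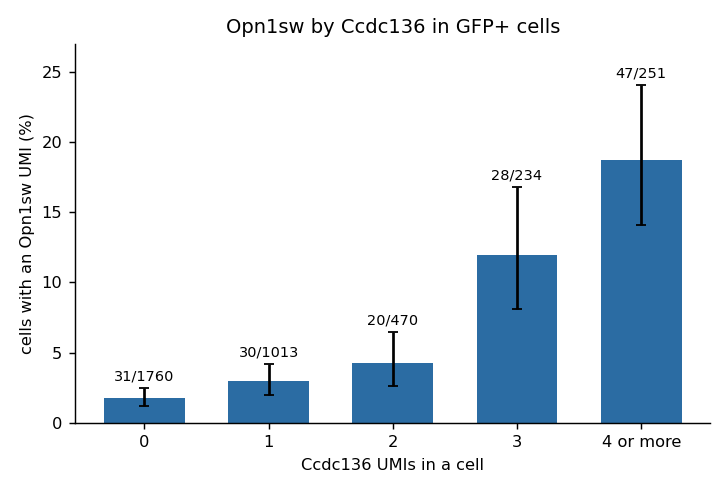
Bars give the percentage of GFP+ cells with an Opn1sw UMI among cells with 0, 1, 2, 3 and 4 or more Ccdc136 UMIs, with 95% Clopper-Pearson intervals and the number of cells above each bar. The share goes from 1.76% at 0 to 18.7% at 4 or more.

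*Ccdc136* lies at chr6:29396309-29426994 on the plus strand, 7841 bases from the annotated *Opn1sw* gene, and the 2 genes point away from each other. *Calu*, a calcium binding protein of the secretory pathway, lies on the other side at chr6:29348069-29377110 on the plus strand, and its end overlaps the end of *Opn1sw* by 440 bases. *Calu* was at 88.9 CPM in cells with an *Opn1sw* UMI and 59.8 CPM in cells without, a ratio of 1.49 (1.12 to 1.94). Whether the counting used the strand is not given in the sources used here, so reads in the shared bases are uncertain for both genes, and their part in the *Calu* ratio was not tested. Of the 16 other genes listed within 250 kb of *Opn1sw*, 6 passed the filter on low counts. The ratios of the other 4 were 1.24 for *Impdh1* (0.972 to 1.55), 0.983 for *Atp6v1f*, 0.910 for *Hilpda* and 0.842 for *Tnpo3*, so the genes on either side of *Opn1sw* had the highest ratios of the 6. *Rbm28*, 211665 bases away and short of the filter, had 33 UMIs against 528 (1.47, 1.0 to 2.09), a ratio like that of *Calu*. These genes were chosen for their position after values had been seen.

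*Pcp2*, a G protein regulator best known from Purkinje cells and retinal bipolar cells, was the tested gene with the next highest ratio. It had 187 CPM with and 83.2 CPM without an *Opn1sw* UMI, a ratio of 2.25 (1.85 to 2.71), and was found in 41.0% and 21.6% of cells. Of GFP+ cells with a *Pcp2* UMI, 7.65% held *Opn1sw* (5.94 to 9.66%), against 3.18% of those without (2.57 to 3.89%). *Pcp2* was near absent from the GFP− library at 0.428 CPM. The bipolar genes *Vsx1*, *Grm6*, *Trpm1*, *Gsg1* and *Grik1* had 0 UMIs in the 156 cells and between 0 and 8 UMIs in the 3572 others, too few to compare. The summed level of the 9 bipolar genes, 213 against 106 CPM, was mostly *Pcp2*.

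The 13 genes that followed had ratios from 1.8 down to 1.55, on 48 to 100 UMIs in the chosen cells and with intervals wide enough to overlap one another. *Klf4*, a zinc finger factor, was at 84.3 against 46.9 CPM (1.8, 1.34 to 2.37). *Samd11*, a polycomb partner in photoreceptors, was at 92.0 against 54.0 CPM (1.70, 1.29 to 2.21) and was the only one of the 16 tested photoreceptor regulators past 1.5-fold. *Ift81*, a subunit of the intraflagellar transport machine that builds cilia, had a ratio of 1.77 (1.34 to 2.30). The others were *L3hypdh* (hydroxyproline dehydration), *Mcc*, *Zfp365*, *Mrpl9* (mitochondrial ribosome), *Impa1* (inositol recycling), *Kin*, *Zc3h13* (RNA methylation), *Snx10* (endosomal sorting), *Tex264* (endoplasmic reticulum turnover) and *Arl8b* (lysosome positioning). In cells with 2 or more *Opn1sw* UMIs the ratios of the 13 genes ran from 0.880 for *Zc3h13* (0.353 to 1.82) to 2.1 for *Mrpl9* (1.35 to 3.11), on 7 to 25 UMIs. *Mrpl9* alone had an interval above 1 there, and *Samd11*, at 101 CPM (1.86, 0.988 to 3.21), and *Klf4*, at 54.2 CPM (1.16, 0.464 to 2.40), were within counting error of the level without *Opn1sw*. The *Mrpl9* UMIs were clumped, with 18 of the 100 in a single chosen cell, so its intervals may be too narrow. *Mrpl9* was found in 29.5% (22.5 to 37.3%) of the chosen cells against 26.7% of the others. Against reference cells matched on depth its ratio was 1.28.

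**Figure D4:**
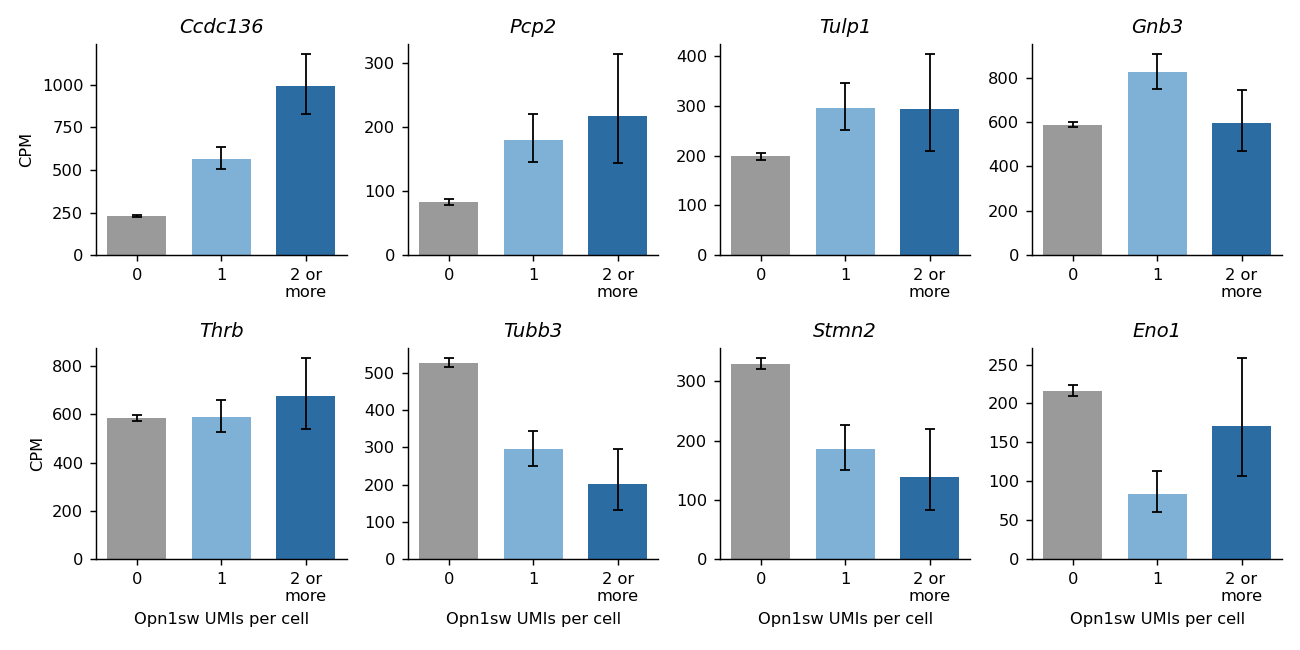
Bars give CPM of 8 genes in GFP+ cells with 0 (3572 cells, grey), 1 (128 cells, light blue) and 2 or more (28 cells, dark blue) Opn1sw UMIs, with 95% Poisson intervals. Ccdc136 is higher in each class than in the one before, Thrb is level, and Tubb3 and Stmn2 are lower in both classes with Opn1sw.

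Among phototransduction genes, most of the few that could be tested had ratios a little above 1. Of the 7 of 25 genes of that list that passed the filter, 6 had a ratio above 1 and none was 1.5-fold higher. The remaining 1, *Abca4*, was past 1.5-fold lower, and 9 of the 25 had 0 UMIs in the 156 cells. The median log2 ratio of the 7 was 0.22, against 0.002 over all tested genes. It was 0.165 with both sets limited to cells with *Gngt2* and *Crx* UMIs. The summed level of the list was 4687 against 4015 CPM. *Gnb3*, the cone transducin beta subunit, was at 780 against 588 CPM (1.33, 1.21 to 1.45). *Gnat2*, the alpha subunit, was at 213 against 165 CPM (1.29, 1.08 to 1.53), and *Gngt2* at 2140 against 1821 CPM (1.18, 1.11 to 1.24). *Pdc*, phosducin, which binds transducin beta and gamma subunits, had a ratio of 1.17 (1.07 to 1.27). Over the 156 cells all 3 subunits of cone transducin thus had intervals above 1. In the 28 cells with 2 or more *Opn1sw* UMIs none of the 3 did. There *Gnb3* had a ratio of 1.01 (0.800 to 1.27), *Gnat2* of 1.03 (0.646 to 1.57) and *Gngt2* of 1.08 (0.948 to 1.22), while *Pdc* was at 1.42 (1.18 to 1.68). The 28 cells include a deep cell rich in progenitor UMIs, described below. It held 13661 of their 129034 UMIs but 9 of their 253 *Gngt2* UMIs. Ratios of the 28 cells without it were not taken, so the *Gngt2* result there may rest on 1 cell.

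Genes that act later in the cascade were mostly too low to place. *Arr3*, the cone arrestin that turns opsin off, had 4 UMIs in 4 of the 156 cells and 17 UMIs in the 3572 others, 6.13 against 1.11 CPM (ratio 5.54, 1.36 to 17.0). *Rgs9*, which ends the transducin signal, had 20 UMIs against 237 (1.99, 1.19 to 3.14), and the exchanger *Slc24a2* 22 UMIs against 305 (1.70, 1.05 to 2.62). The channel subunit *Cngb3* had a ratio of 1.03 (0.840 to 1.26), and *Pde6c*, the cone phosphodiesterase, of 0.756 (0.399 to 1.31). *Grk1*, *Pde6h* and *Rcvrn* had 0 UMIs in these cells. *Abca4*, the retinoid transporter of outer segment discs, was the exception among the genes that passed, at 81.3 against 135 CPM (0.604, 0.451 to 0.793).

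Most tested genes of the outer segment, cilium and synapse had ratios a little above 1. Of the 9 outer segment and cilium genes that passed, 8 had ratios above 1, with a median log2 ratio of 0.23, and *Ttc8*, of the ciliary BBSome complex, was at 0.984 (0.724 to 1.31). *Tulp1*, which carries proteins toward the outer segment, was at 296 against 199 CPM (1.49, 1.28 to 1.72), and was found in 63.5% against 50.3% of cells. *Rpgrip1*, at the connecting cilium, had a ratio of 1.17 (1.05 to 1.31). Of the 8 synapse genes that passed, 6 were above 1 and none past 1.5-fold. *Snap25*, of the vesicle fusion complex, was at 627 against 480 CPM (1.31, 1.18 to 1.44), and *Cplx3*, a complexin of photoreceptor ribbons, at 437 against 351 CPM (1.25, 1.10 to 1.40). The 2 below 1 were *Syt1*, a calcium sensor of vesicles (0.856, 0.636 to 1.13), and *Stx3*, the syntaxin of ribbon synapses (0.869, 0.635 to 1.16). In cells with 2 or more *Opn1sw* UMIs *Stx3* had 3 UMIs (0.281, 0.0578 to 0.822) and *Prom1*, of outer segment discs, 7 UMIs (0.432, 0.174 to 0.892), both with intervals below 1. In the same cells *Snap25* was at 1.49 (1.20 to 1.82), *Tulp1* at 1.48 (1.05 to 2.04) and *Cplx3* at 1.37 (1.05 to 1.76), with intervals above 1, and *Rpgrip1* at 0.900 (0.672 to 1.18). *Cacna2d4*, a calcium channel subunit of photoreceptor terminals that fell short of the filter, had 38 UMIs against 485 (1.84, 1.29 to 2.57).

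The regulators of cone fate and of opsin choice were nearly level. *Thrb* was at 606 against 584 CPM (1.04, 0.935 to 1.15) and at 674 CPM (540 to 832) in cells with 2 or more *Opn1sw* UMIs. *Rxrg* was at 251 against 242 CPM (1.04, 0.881 to 1.21), *Otx2* had a ratio of 1.01 (0.949 to 1.08) and *Lhx4* of 1.05 (0.847 to 1.29). *Crx* had a ratio of 1.10 (1.01 to 1.20) and *Rorb*, which drives S-opsin with CRX, of 1.07 (0.969 to 1.17). *Thrb* and *Rxrg* transcripts were thus not measurably scarcer where *Opn1sw* was found, with the lower bounds given. Of the 13 genes of the thyroid hormone axis 5 passed, none past 1.5-fold, with a summed ratio of 1.04 (0.977 to 1.12). *Dio3*, which inactivates the hormone, had 2 UMIs in these cells, and *Dio2*, which makes it active, had 0.

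The list of S cone associated genes, written with earlier results known, gave a mixed picture. Of the 8 listed, 7 were matched, and 4 passed: *Ccdc136*, *Calu*, *Nrtn* (a neurotrophic ligand, 1.17, 0.810 to 1.65) and *Srrm4* (a neuronal splicing factor, 1.02, 0.798 to 1.29). The summed ratio of 2.02 was carried by *Ccdc136*. The dorsal genes summed to 121 CPM in both sets (ratio 1.0, 0.788 to 1.25). The ventral genes summed to 82.8 against 68.6 CPM (1.21, 0.901 to 1.59), with *Vax2*, a ventral homeobox factor, at 49.1 against 35.0 CPM (1.40, 0.948 to 2.00). Neither list placed these cells on the dorsal or ventral side within counting error.

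Of the 13 rod genes 1 passed the filter, *Reep6*, which was not past 1.5-fold. Their sum was 221 against 161 CPM (1.37, 1.15 to 1.63) on 144 and 2467 UMIs, and the most abundant gene in the 156 cells was *Gngt1*, the gamma subunit of rod transducin, with 48 UMIs against 600 (1.88, 1.37 to 2.53). *Reep6*, the most abundant in the other cells, had 40 UMIs against 895 (1.05, 0.747 to 1.44). *Nr2e3*, which represses cone genes in rods, had 3 UMIs of 652238 against 8 of 15358353. Its level was thus higher in the 156 cells, on very few UMIs. *Gnat1*, *Pde6a*, *Pde6b*, *Cnga1*, *Cngb1* and *Slc24a1* were at 0 in the 156 cells.

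**Figure D5:**
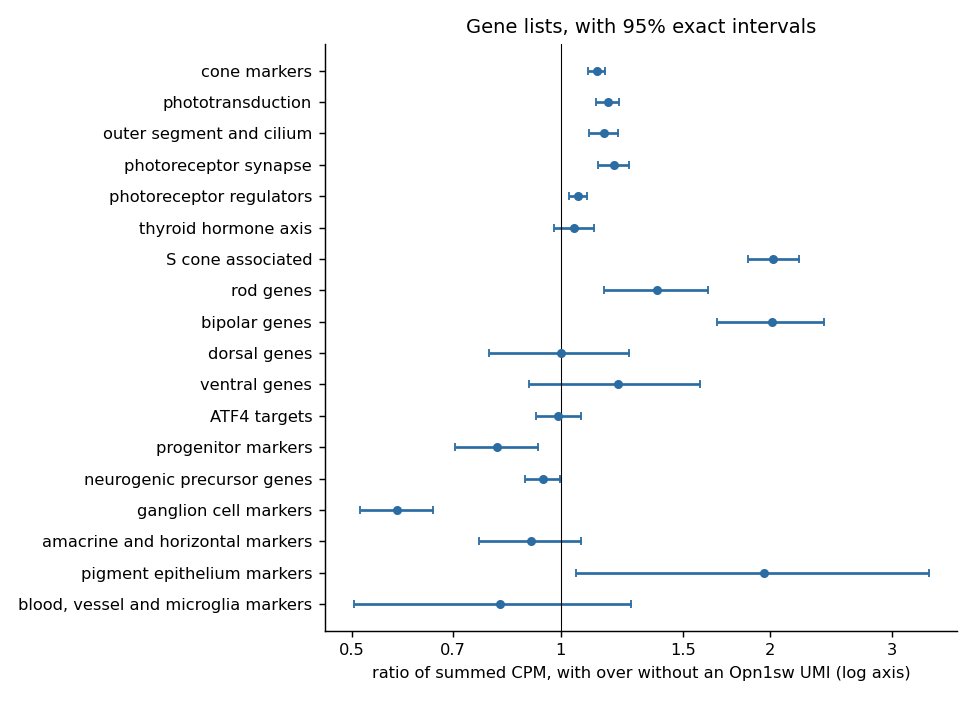
Each point is the ratio of the summed CPM of a gene list, GFP+ cells with over without an Opn1sw UMI (log axis), with its 95% exact interval. The S cone associated (2.02) and bipolar (2.01) sums, each carried by 1 gene, lie highest, and the ganglion cell sum (0.581) lies lowest.

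*Tubb3*, the tubulin of newborn neurons, which is on none of the lists, was at 276 against 527 CPM (ratio 0.523, 0.449 to 0.607). It was at 202 CPM (132 to 295) in the 28 cells with 2 or more *Opn1sw* UMIs. Of the 10 ganglion cell markers 2 passed the filter, *Stmn2* and *Ebf1*, both below 1. *Stmn2*, a stathmin of growing axons, was at 176 against 330 CPM (0.534, 0.440 to 0.643). *Gap43*, of growth cones, had 5 UMIs against 537 (0.219, 0.0709 to 0.515), and *Nefl* 0 against 131, at least 1.85-fold lower. The 10 ganglion cell markers summed to 429 against 739 CPM (0.581, 0.514 to 0.654), and were at 4452 CPM in GFP− cells. Their most abundant gene was *Stmn2*, with *Pou4f2*, *Isl1*, *Rbpms* and *Nefl* at 0 in the 156 cells. *Ebf1*, a transcription factor of young neurons, was at 213 against 299 CPM (0.712, 0.597 to 0.843). These are genes of the GFP− cells too, and the part of RNA from such cells in the result was not tested.

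*Eno1*, the glycolytic enolase, had the lowest ratio of the 3695 tested genes, at 101 against 217 CPM (0.467, 0.361 to 0.596). The ratio was nearer 1 at 0.637 with both sets limited to cells with *Gngt2* and *Crx* UMIs. Against reference cells matched on depth it was 0.617. *Eno1* was found in 25.0% against 38.9% of cells, and in 99.0% of the GFP− cells, where it stood at 1587 CPM. Its near copy *Eno1b* had 5 UMIs against 193 (0.610, 0.196 to 1.45), so how the counting split reads between them is uncertain. In cells with 2 or more *Opn1sw* UMIs *Eno1* was at 171 CPM (107 to 258), but 12 of its 22 UMIs there came from the single progenitor-rich cell described next, and without that cell the ratio over the chosen cells was 0.390. The other low genes included *Psat1*, of serine synthesis (0.555, 0.337 to 0.863), the splicing protein *Pqbp1* (0.563), *Rbm27* (0.569), the cargo receptor *Surf4* (0.578), *Junb* (0.589), the copper chaperone *Ccs* (0.593) and *Bccip* (0.595), and the gene models *1110001J03Rik* (0.509), *AK010878* (0.568) and *Gm9844* (0.575), whose roles are not given here. The 8 ATF4 targets that passed had a median log2 ratio of −0.12, which turned to 0.06 in thinned cells (4 genes) and 0.15 in cells with exactly 1 *Opn1sw* UMI (6 genes), and their list summed to 1118 against 1127 CPM.

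Of the 13 progenitor markers 4 passed the filter, and the values of *Fgf15* and *Ccnd1* rested on 1 cell. The growth factor *Fgf15* was at 23.0 against 48.6 CPM (0.473, 0.263 to 0.785) and the cyclin *Ccnd1* at 44.5 against 74.7 CPM (0.595, 0.397 to 0.860), but a single cell with 3 *Opn1sw* UMIs held 14 of the 15 *Fgf15* and 25 of the 29 *Ccnd1* UMIs. This cell was the deepest of the 156, with 13661 UMIs and 3971 genes, and held 77 of their 217 UMIs of the progenitor list beside 9 *Gngt2*, 4 *Crx*, 7 *Otx2* and 8 *Ccdc136* UMIs. It also held 8 of the 23 UMIs of *Sfrp2*, a secreted Wnt modulator (0.647, 0.408 to 0.978). *Lhx2*, a homeobox factor of progenitors and the most abundant of the list, had 75 UMIs in the 156 cells and a ratio of 1.18 (0.923 to 1.49). Scrublet did not mark that cell, and whether it held RNA of 2 cells was not tested. No other cell of the 156 had more than 4 progenitor UMIs. The list summed to 333 against 411 CPM with the cell (0.810, 0.704 to 0.927) and to 219 CPM without it (0.534, 0.448 to 0.631), against 5051 CPM in GFP− cells. Without it *Fgf15* had a ratio of 0.032 and *Ccnd1* of 0.084. With it, against reference cells matched on depth, the ratios turned to 1.67 and 1.55. Few cells held either gene in both sets. *Fgf15* was found in 1.28% (0.156 to 4.55%) against 2.24% (1.78 to 2.78%) of cells, with up to 83 UMIs in 1 cell without *Opn1sw*. *Ccnd1* was found in 3.21% (1.05 to 7.32%) against 4.90% (4.21 to 5.66%), with up to 64 UMIs. These shares thus overlapped within counting error.

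Amacrine and horizontal markers summed to 224 against 247 CPM (0.907, 0.764 to 1.07) and to 341 CPM in GFP− cells, with *Onecut2*, which cones also express, as the most abundant and *Tfap2b*, *Ptf1a*, *Gad1* and *Slc32a1* at 0. Pigment epithelium markers summed to 21.5 against 10.9 CPM (1.96, 1.05 to 3.39), above the 1.67 CPM of GFP− cells, with *Dct* at 11 UMIs, while *Rpe65*, *Pmel*, *Tyr*, *Tyrp1* and *Ttr* were at 0. Blood, vessel and microglia markers summed to 32.2 against 39.3 CPM and to 409 CPM in GFP− cells, mostly *C1qa* at 14 UMIs. The neurogenic precursor genes summed to 1883 against 1999 CPM (0.942, 0.889 to 0.997) and to 1704 CPM in GFP− cells, with *Hes6* at a ratio of 0.732 (0.628 to 0.849) and *Btg2* at 1.14 (1.03 to 1.25).

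Other groups of GFP+ cells crossed this one. *Opn1sw* was found in 4.45% (3.47 to 5.61%) of cells with a *Fabp7* UMI and 4.0% of those without, although the *Fabp7* level was lower with *Opn1sw*, 285 against 451 CPM (0.632, 0.543 to 0.731). It was found in 3.27% (1.75 to 5.53%) of cells with *Pcp4* and 4.29% without, in 4.37% (1.91 to 8.43%) with *Slc7a3* and 4.17% without, and in 5.54% (3.55 to 8.20%) with *Nrl* and 4.01% without. In all 4 pairs the intervals of these shares overlapped.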

How the data were processed

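The authors made the deposited UMI counts with Cell Ranger 2.1.1 and an mm10 (GRCm38) reference, per gene and cell and not normalized. Cells with a mitochondrial fraction under 0.25 were kept, with no upper limit on genes (39 GFP+ cells had over 3500). The cells and gene lists were chosen with earlier results of these data known. UMIs were summed per set of cells and given per 1000000. Levels carry exact Poisson, shares Clopper-Pearson and ratios conditional binomial intervals. The genes named were the 15 highest and 15 lowest of those with at least 30 expected UMIs (46.0 CPM), the members of 18 lists, and neighbours of *Opn1sw*, the last chosen after values were seen. Cells were thinned to 3000 UMIs, leaving out 344 GFP+ cells. Scrublet (scanpy 1.11.5, rate set to 0.03) was run for doublets, which were left in, and 3 calls in the GFP+ library say little of doublets there. Of 28692 genes, 58 symbols were carried by more than 1 gene, and the one with most UMIs was used. Positions came from the GENCODE annotation of GRCm38 by Ensembl identifier. Python 3.11.15, numpy 2.4.6, pandas 2.3.3, scipy 1.17.1 and edgeR 4.0.16 (R 4.3.3, TMM factors only) were used, and the scripts were tested on simulated data. The alternatives were other limits on cells, *Opn1sw* UMIs, depth, low counts and scaling.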

Additional observations from a re-analysis of the deposited data

How the results depend on the processing

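With 2 or more *Opn1sw* UMIs the share of cells was 0.751%, and in thinned cells, which hold fewer UMIs by construction, 3.25%; other limits on cells left it between 4.17% and 4.19%. The counts of genes 1.5-fold higher and lower, 25 and 37 of 3695, moved with the genes tested, the cells summed and the scaling. They were 1 and 13 of 637 genes with 2 or more UMIs, 7 and 18 of 2446 in thinned cells, 207 and 290 of 7294 with at least 10 expected UMIs, and 1971 and 5993 of 17535 with no filter. They were 39 and 55 with depth-matched reference cells, and 15 and 50 with TMM factors on the same genes and cells. With 2 or more UMIs fewer genes passed, so the median log2 ratios of the lists rest on other gene sets. The median of photoreceptor regulators was −0.16 (9 genes against 16). It was smaller for phototransduction (0.064 against 0.22, 4 genes against 7), outer segment and cilium genes (0.01 against 0.23, 3 against 9) and cone markers (0.021 against 0.14, 7 against 9). It was larger for synapse genes (0.20 against 0.16, 4 against 8) and the thyroid hormone axis (0.21 against 0.052, 3 against 5). For neurogenic precursor genes it was −0.23 against −0.17 (3 against 7). The median of ATF4 targets changed sign, to 0.061 in thinned cells and 0.15 with exactly 1 UMI. With both sets limited to cells with *Gngt2* and *Crx* UMIs, several medians were smaller but still above 0. They were 0.165 for phototransduction, 0.179 for outer segment and cilium genes, 0.113 for synapse genes and 0.069 for cone markers.

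Of the 30 highest and lowest ratios, 3 changed direction. *Fgf15* was 2.23 with 2 or more UMIs and 1.67 with depth-matched cells; *Ccnd1* was 2.70, 1.55 and, in cells with *Gngt2* and *Crx* UMIs, 1.21; *Zc3h13* was 0.880 with 2 or more UMIs. The cell with 77 progenitor UMIs was in each of these sets. *Ccdc136* ran from 2.46 (exactly 1 UMI) to 4.31 (2 or more), *Pcp2* from 2.01 to 2.61, *Tubb3* from 0.382 to 0.617 and *Eno1* from 0.388 to 0.787, the upper end being 2 or more UMIs, where that cell held 12 of 22 *Eno1* UMIs. Leaving out the cell with 23 *Opn1sw* UMIs, chosen after seeing the data, changed no direction. No paired analysis was possible because there was 1 library per gate. Genes under 46.0 CPM were outside the tested set, and values given for them rest on few UMIs.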

Other observations

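Among the 3572 GFP+ cells without an *Opn1sw* UMI, those with at least 3 *Ccdc136* UMIs (410 cells, median 4241.5 UMIs) were read against those with none (1729 cells, median 3780 UMIs), a split chosen after the values were seen. Of the other 14 tested genes that were highest with *Opn1sw*, 13 had ratios above 1 here, beside 51.2% of all tested genes, and 3 were past 1.5-fold, beside 0.352% of all tested genes. These were *Pcp2* at 117 against 69.5 CPM (ratio 1.68, 1.43 to 1.98), *Samd11* at 73.8 against 46.3 CPM (1.59, 1.3 to 1.95) and *Zfp365* at 61.7 against 39.8 CPM (1.55, 1.24 to 1.93). Of the 13, only these 3 and *L3hypdh* had intervals above 1, and the rest were within counting error of 1. *Gnat2* (1.5, 1.33 to 1.68), *Tulp1* (1.41, 1.26 to 1.57), *Snap25* (1.29, 1.20 to 1.38) and *Rxrg* (1.36, 1.24 to 1.5) were higher in the *Ccdc136* cells, and *Thrb* was level (1.04, 0.971 to 1.11).

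Of the 15 tested genes that were lowest with *Opn1sw*, 11 had ratios below 1 here and 3 were past 1.5-fold lower, beside 0.487% of all tested genes. *Eno1* (0.532, 0.466 to 0.607), *Ccnd1* (0.102, 0.0609 to 0.160) and *Fgf15* (0.0363, 0.0117 to 0.0852) were lower in the *Ccdc136* cells. Among all GFP+ cells without an *Opn1sw* UMI, *Ccnd1* was found in 4.90% and *Fgf15* in 2.24%, with up to 64 and 83 UMIs in 1 cell. The ratios of *Ccnd1* and *Fgf15* thus rest on few cells, and their intervals may be too narrow. *Tubb3* (0.803, 0.745 to 0.866) and *Stmn2* (0.880, 0.800 to 0.967) were lower by less than they were with *Opn1sw*, and the difference between those ratios was not tested. Of the 11, *Psat1* also had an interval below 1, and the rest were within counting error of 1. *Pqbp1* went the other way, at 1.25 (1.04 to 1.5), and *Surf4* (1.08, 0.860 to 1.34), *Ccs* (1.02, 0.834 to 1.23) and *Bccip* (1.01, 0.816 to 1.25) were above 1 within counting error. *Gngt1*, higher with *Opn1sw*, had a ratio of 0.860 (0.643 to 1.13) here.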
